A study of Homo sapiens with 12 samples.

Results

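The baseline microRNA profile of untreated KYSE150 cells was described from the 6 arrays titled as controls among the 12 arrays of the series. KYSE150 is an established cell line from a human squamous carcinoma of the oesophagus. The cells were grown in Ham's F12 with 2% fetal bovine serum and received no galectin-9. The other 6 arrays, of the same line after 100 nM galectin-9 for 6 h, were not used. Total RNA of each sample was labelled with Cy5 and hybridised to a 3D-Gene array with 2565 human miRNA probes. Whether the samples numbered 1 to 6 were separate cultures is not stated, so the spread between arrays, and p-values built on it, may be technical. All values are of 1 cell line, and no normal oesophageal cells were measured.

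MicroRNAs are short RNAs cut from hairpin precursors, first in the nucleus by Drosha and then in the cytoplasm by Dicer. One arm of the hairpin, 5p or 3p, is usually retained in an Argonaute protein while the other is degraded. The seed, bases 2 to 8 of the mature miRNA, pairs with target messages, and miRNAs that share a seed are grouped as a family. Squamous epithelia are known for miR-205, miR-203 and miR-31, and epithelia in general for the miR-200 family.

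Of the 15 probes with the highest brightness, 12 matched a mature sequence in RefSeq (GRCh38.p14), and miR-4286, miR-7641 and miR-1273g-3p are named only. Shown first are 4 probes of ranks 1 to 50 whose sequences end in the same 5 bases, since they include the brightest probes on the arrays. Capitals mark the last 13 bases in miR-4454 and miR-7975, which are identical between these miRNAs, and the last 5 bases in miR-7977 and miR-1260a.
miR-4454: ggauccgAGUCACGGCACCA
miR-7975: auccuAGUCACGGCACCA
miR-7977: uucccagccaacgCACCA
miR-1260a: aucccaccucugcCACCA
Only 6 of the 2253 matched sequences, or 0.266%, end in CACCA, and 4 of those 6 lie among the 50 brightest probes. CCA is also the end of mature transfer RNAs. Whether RNAs other than the named miRNAs contributed to these signals was not tested.

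The next set shows members of families that recur among the 50 brightest probes, together with miR-21-5p, miR-205-5p and miR-31-5p, whose seeds occur once there. It also holds miR-141-3p, a member of the miR-200 group that lies outside the 50 brightest and has another seed than miR-200c-3p. Capitals mark the seed.
let-7f-5p: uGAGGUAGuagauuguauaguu
let-7a-5p: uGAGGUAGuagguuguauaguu
miR-17-5p: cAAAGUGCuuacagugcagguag
miR-106a-5p: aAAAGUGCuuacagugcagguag
miR-23a-3p: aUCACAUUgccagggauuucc
miR-23b-3p: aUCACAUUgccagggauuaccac
miR-200c-3p: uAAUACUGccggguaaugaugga
miR-200b-3p: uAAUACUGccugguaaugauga
miR-141-3p: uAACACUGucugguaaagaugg
miR-21-5p: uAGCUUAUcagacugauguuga
miR-205-5p: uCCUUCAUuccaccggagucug
miR-31-5p: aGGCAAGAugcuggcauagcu
Among the 45 probes of the 50 brightest with a matched sequence, 6 carry the seed AAAGUGC of the miR-17 family and 5 the seed GAGGUAG of the let-7 family. Another 9 seeds occur in 2 probes each. Of these 45 sequences, 17 lie in 15 pairs that differ by at most 2 edits. Counted from 1 at the 5′ end, let-7f-5p and let-7a-5p differ by A12G, miR-17-5p and miR-106a-5p by C1A, and miR-103a-3p and miR-107 by G22C. Signal shared between probes of such pairs by cross-hybridisation was not tested.

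All levels below are background-subtracted Cy5 intensities in arbitrary units, given as the lowest, the median and the highest of the 6 arrays. An intensity also depends on how well each probe binds its target, so the order of probes is an order of brightness and not of copies per cell.

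A few probes took most of the signal. The probe for miR-4454 was the brightest on each of the 6 arrays, with 41381, 47606 and 53135. It was 3.58 to 4.59 times as bright as the next probe of the same array and held 23.4% to 27.1% of the summed intensity. The 50 brightest probes together held 81.4% to 84.5%. Only 123 probes had a median above 100.

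The probes of miR-7977 (9011, 12482 and 14855) and miR-7975 (8744, 11823 and 13206) came next and kept ranks 2 and 3 on each array, although their intensity ranges overlap. The probe of miR-1260b (6491, 8451 and 10728) held rank 4 and that of miR-4284 (5454, 8311 and 9035) rank 5 on 5 arrays, and they changed places on control 4. These 5 names were added late to the miRNA catalogue, and no function of theirs is given here.

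From rank 6 on, the ranges overlap between neighbours. The probe of miR-23a-3p measured 3184, 3666 and 4237, and that of miR-23b-3p, its paralog from another chromosome, measured 2583, 3555 and 4197. The let-7 family, known for silencing growth genes such as RAS and HMGA2, followed with let-7f-5p at 2818, 3476 and 3555 and let-7a-5p at 1977, 3027 and 3552. The probe of miR-21-5p, a miRNA raised in many carcinomas and known for targeting PDCD4, measured 2381, 3102 and 3485. Ranks 6 to 15 were completed by miR-4286 (median 3248), miR-205-5p (2768), miR-7641 (2880), miR-5100 (2606) and miR-1273g-3p (2631).

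The order was stable at the top and looser below. Of the 15 probes of lowest median rank, 13 were in the first 15 of every array. The same held for 45 of 50, 91 of 100 and 179 of 200. Within the first 15, the widest range of ranks was that of miR-7641, from 9 to 22, with its lowest intensity of 1412 on control 5. Across pairs of arrays, log2 intensities of the 898 probes detected on all 6 arrays had a Pearson correlation of 0.976 to 0.990 and a Spearman correlation of 0.914 to 0.970. These are correlations across probes, which are not independent replicates.

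**Figure D1:**
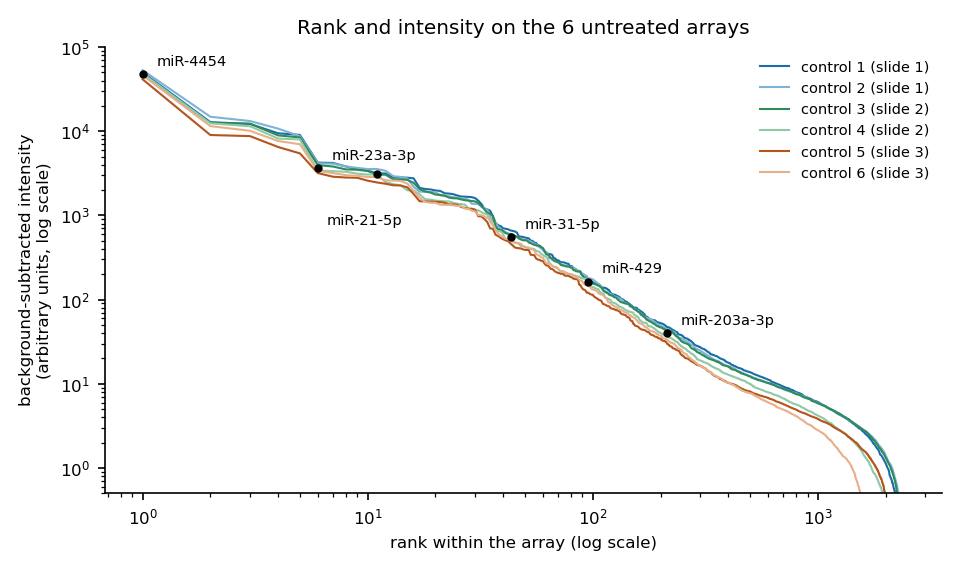
Background-subtracted intensity (arbitrary units, log scale) against rank within the array (log scale), 1 line for each of the 6 untreated arrays; black points give the median rank and median intensity of named miRNAs. The lines nearly coincide over the bright probes, and those of controls 4, 5 and 6 run lower in the dim range.

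Names numbered below 1000, with let-7 counted among them, are the miRNAs found early, many of them conserved. They made up 36 of the 50 brightest probes (72.0%), 29 of the next 50, 50 of the next 100 and 90 of the next 300. Among the other 398 probes detected on all 6 arrays their share was 25.4%. Over detection the classes were alike: 306 of 920 early-numbered probes (33.3%) and 521 of 1439 probes numbered 3000 and above (36.2%) were detected on all 6 arrays.

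Detection was taken from the files, which list a value where the raw intensity exceeds the mean of the trimmed blank spots by more than 2 SD of those blanks. By this call 898 of 2565 human probes (35%) passed on each of the 6 arrays, while 455 (17.7%) passed on none. The remaining 1212 were detected on 1 to 5 arrays. No probe missing on any array had a median above 100. Probes detected on all 6 arrays held 97.7% to 99.3% of the summed intensity.

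The number of detected probes ran from 934 on control 6 to 1895 on control 3. Of the 349 probes detected on 5 arrays, 323 were missing on control 6, whose blanks had the largest SD, 1.59 against 0.839 to 1.19 on the other arrays. With control 6 left out, the count on all remaining arrays was 1221. The limit also passed 0 to 14 of the 32 negative control spots of an array, and 31 to 74 of 85 spots the files name "No Probe". None of the 32 negative control spots passed on all 6 arrays, while 6 of the 85 "No Probe" spots did. Set against the brightest negative control spot of each array in place of the blank limit, 998 probes passed on all 6 arrays and 693 on none, and control 4 had the most probes with 1656.

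**Figure D2:**
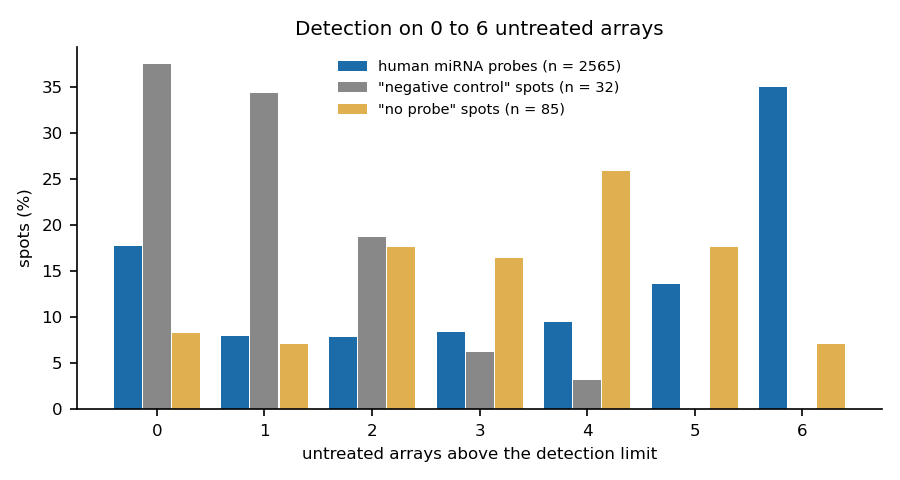
Share of spots (%) above the detection limit on 0 to 6 untreated arrays, for 2565 human miRNA probes, 32 negative control spots and 85 "No Probe" spots. The human probes have their highest bar at 6 arrays (35%) and a lower one at 0 arrays (17.7%), while the negative controls are highest at 0 arrays (37.5%) and reach no more than 4.

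Detected and undetected probes differed in base composition. The median GC content of the mature sequence was 39.1% for 400 probes detected on no array, 50% for 1071 probes on 1 to 5 arrays and 60.0% for 782 probes on all 6. The order was the same among early-numbered miRNAs, with 36.4%, 47.6% and 50%, and among later ones, with 40.9%, 52.4% and 63.6%. Within the probes detected on all 6 arrays, GC content had a Spearman correlation of -0.0029 with mean log2 intensity across 782 probes. Such a value can hide a rise and a fall. The median GC content was 47.6% for the 50 brightest probes (45 matched). It was 63.6% for the 300 probes down to rank 500 (263 matched) and 59.1% for the other 398 (346 matched). Across the 782 probes, G content had a Spearman correlation of 0.1934 with mean log2 intensity and U content one of -0.1369. The part of GC content in which miRNAs appear as detected was not tested, and an undetected miRNA may be present below the limit. The miR-548 family, a large group derived from Made1 transposons with A- and U-rich sequences, had 0 of 73 probes on all 6 arrays and 52 of 73 (71.2%) on none.

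The squamous label was checked against its markers. The squamous list holds 9 probes, of which 5 were detected on all 6 arrays, 3 on some and 1 on none. The probe of miR-205-5p, which in keratinocytes supports proliferation and represses ZEB1, measured 2463, 2768 and 3410 at a median rank of 11.5. The probe of miR-31-5p, often raised in squamous carcinoma, measured 490, 554 and 664 at rank 43.5. The probe of miR-203a-3p, which in mouse epidermis restrains p63 and promotes differentiation, measured 33.0, 39.8 and 45.1 at rank 214.5. These 3 markers were thus present on each array, and their ranges do not overlap. The probe of miR-944, whose hairpin lies within the TP63 gene, was near the limit with 2.77, 3.52 and 6.34 and was detected on 5 arrays.

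All 5 main strands of the miR-200 family, which represses the ZEB factors of the epithelial to mesenchymal transition, were detected on all 6 arrays. The order was miR-200c-3p (1411, 1536 and 1979), miR-200b-3p (671, 882 and 1136), miR-141-3p (174, 255 and 295), miR-200a-3p (202, 252 and 279) and miR-429, which ran from 116 to a median of 164. The ranges of miR-200c-3p, miR-200b-3p and the rest do not overlap, while those of miR-141-3p, miR-200a-3p and miR-429 do in part. Over both arms, 7 of 9 probes were on all 6 arrays and 2 on 5.

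Markers of other cell types were mostly dim. In RNA of whole cultures a signal from few cells of the line and a low level in every cell cannot be told apart. Glandular and intestinal epithelium gave miR-194-5p (15.1, 20.8 and 25.1) and miR-192-5p (14.8, 18.9 and 24.3) on all 6 arrays, while miR-375, a miRNA of secretory cells, was on 3. Of 12 blood cell probes, 1 was on all 6 arrays, miR-486-5p at 5.46, 7.75 and 18.1, with the highest value on control 6. The probe of miR-142-3p, a defining miRNA of blood cells, was detected on 5 arrays with a median of 3.90 and a highest value of 18.3. The miR-451a probe of red cells was detected on 3 arrays at up to 2.92. In muscle 0 of 12 probes were on all 6 arrays, and in liver 0 of 2. In mesenchyme 1 of 9 was, miR-214-3p at 10.9, 17.9 and 36.7, whereas miR-143-3p and miR-145-5p were on 4 and 3 arrays. Of the endothelial miRNA miR-126, 2 of 2 probes were on all 6 arrays. The probe of miR-126-3p measured 32.7, 41.6 and 48.4, overlapping the squamous marker miR-203a-3p (33.0, 39.8 and 45.1). Of 13 neuronal probes 3 were on all 6 arrays, at medians of up to 9.88, and miR-124-3p was on none.

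Large clusters used in embryonic, testicular and placental cells were mostly near the limit. Of the 20 probes of the pluripotency list 1 was on all 6 arrays, miR-371a-5p with a median of 8.43, and the brightest miR-302 probe, miR-302b-3p, had a median of 2.86. The X-linked testis cluster had 2 of 28 on all 6 arrays. The primate chromosome 19 cluster had 7 of 51, with miR-519a-3p standing above the rest at 62.7, 76.2 and 85.1. The second brightest, miR-522-3p, had a median of 18.6. The imprinted chromosome 14 cluster had 20 of 90 on all 6 arrays and 20 on none. Its brightest member, miR-494-3p, measured 395, 661 and 729 at a median rank of 39.5, and the next members were near 14.6 or lower. These lists, read against 35% of all probes on all 6 arrays, are described by their counts, with no test.

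**Figure D3:**
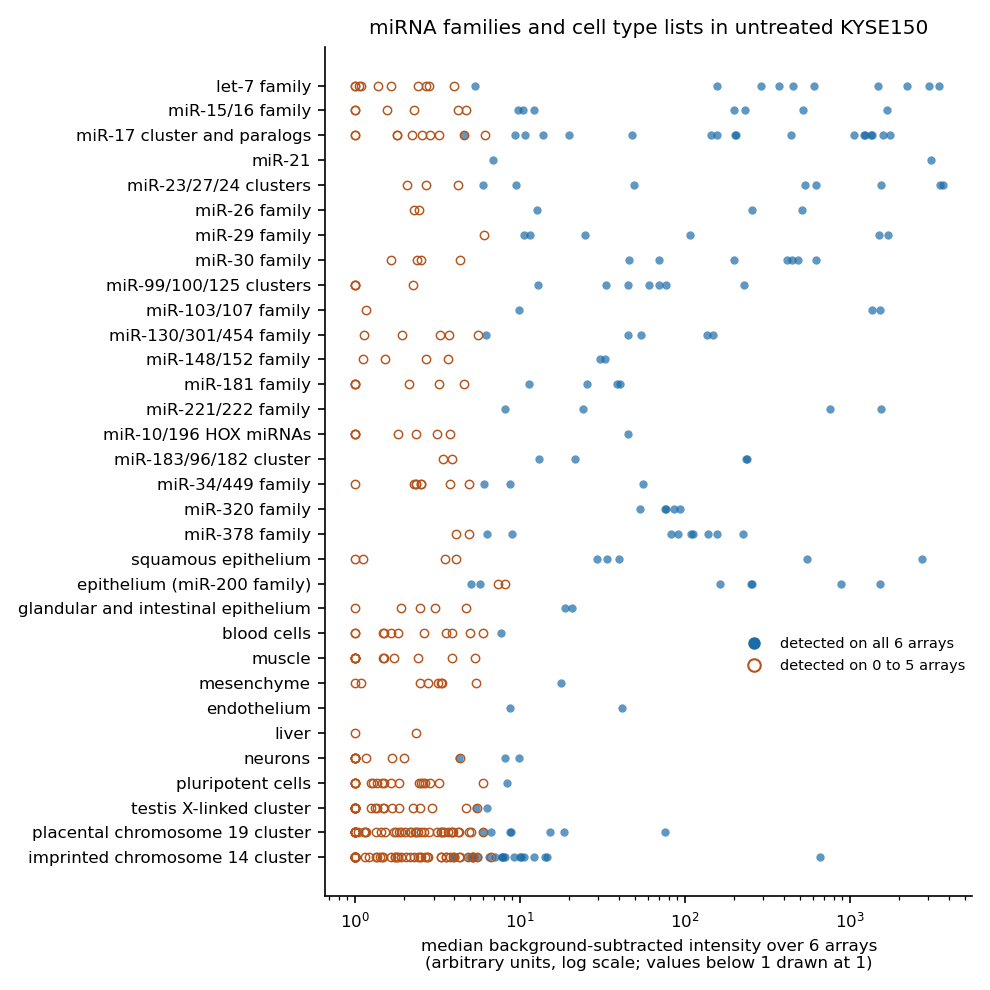
Median background-subtracted intensity over the 6 untreated arrays (log scale, values below 1 drawn at 1) of each probe in the miRNA families and cell type lists; filled points were detected on all 6 arrays and open points on fewer. Points of the squamous and miR-200 lists reach above 1000, the blood, muscle, liver and pluripotency points stay below 10, and 1 point of the chromosome 14 list, miR-494-3p, stands apart at 661.

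The family counts that follow are also to be read against 35% of all probes on all 6 arrays, with no test. Among growth-related families, the miR-17 cluster and its paralogs, known for promoting proliferation and targeting E2F1, had 18 of 28 probes on all 6 arrays. Their brightest members were miR-17-5p (1297, 1767 and 2125), miR-106a-5p (1260, 1592 and 1830), miR-20a-5p (1143, 1362 and 1606) and miR-20b-5p (1157, 1345 and 1671), with overlapping ranges and near-identical sequences. Within the chromosome 13 cluster itself, chr13:91350605-91351391 on the plus strand in GRCh38.p14, the 6 hairpins are transcribed together. Their brightest probe, miR-17-5p, had a median of 1767 and the lowest of the hairpins' best probes, miR-92a-3p, had 156.

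The let-7 family had 10 of 20 probes on all 6 arrays, and the 9 main strands among them spread widely. After let-7f-5p and let-7a-5p came let-7d-5p (1965, 2232 and 2759) and let-7c-5p (1335, 1495 and 1786). Far lower stood let-7g-5p with a median of 612, let-7b-5p with 452, let-7e-5p with 371, let-7i-5p with 290 and miR-98-5p with 157. Of the 11 remaining probes, the other arms, 1 was on all 6 arrays, let-7f-1-3p at a median of 5.32.

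The miR-15/16 family, which restrains cyclins and BCL2, was led by miR-16-5p (1330, 1686 and 2035), with miR-15b-5p at a median of 524, miR-15a-5p at 233 and miR-424-5p at 198. The miR-29 family, known for repressing collagens and DNA methyltransferases, had miR-29a-3p at 1416, 1705 and 2059 and miR-29b-3p at 1202, 1508 and 1661, while miR-29c-3p was at 65.9, 108 and 138 without overlap. The paralogs miR-221-3p (1316, 1547 and 1954) and miR-222-3p (569, 759 and 825), which target the cell cycle inhibitor p27, did not overlap either. The metabolic pair of miR-103a-3p (1338, 1529 and 1724) and miR-107 (1113, 1363 and 1646) differs by a single base and overlapped.

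Other families lay lower. The miR-30 family had 7 of 11 probes on all 6 arrays, led by miR-30b-5p (540, 624 and 764) and miR-30a-5p (415, 487 and 544). The miR-26 family was led by miR-26a-5p, with a median of 514. Each of the 5 miR-320 probes was present, with medians from 53.3 for miR-320e to 94.1 for miR-320a. In the cluster of miR-183, miR-96 and miR-182, the probes of miR-182-5p (216, 240 and 309) and miR-96-5p (184, 234 and 251) exceeded miR-183-5p (13.0, 21.7 and 28.6). The p53 target miR-34a-5p measured 46.1, 56.0 and 75.7. Of the HOX-cluster miRNAs, 1 of 8 probes was on all 6 arrays, miR-196b-5p at 35.8, 45.1 and 51.6, and miR-10b-5p, with a median of 1.8, was on 2.

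The miR-378 family, whose main hairpin lies in the gene of the metabolic coactivator PGC-1beta, had 9 of 11 probes on all 6 arrays. Its brightest were miR-378a-3p (195, 227 and 278) and miR-378i (134, 156 and 179), which do not overlap. In the family of miR-130, miR-301 and miR-454, 5 of 10 probes were on all 6 arrays, led by miR-301a-3p (137, 148 and 172) and miR-130a-3p (116, 138 and 156) with overlapping ranges.

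Of 11 probes for miR-125 and for the paired miR-99 and miR-100, which in many tissues are co-transcribed with let-7 members, 7 were on all 6 arrays. The brightest was miR-125a-3p (151, 230 and 280), above its own 5p arm miR-125a-5p (51.9, 61.1 and 74.2), while miR-99b-5p measured 67.1, 76.9 and 94.1. The miR-181 family had 4 of 10 probes on all 6 arrays (40%), near the share of all probes (35%). It was led by miR-181b-5p (34.3, 40.8 and 53.3) and miR-181a-5p (31.6, 39.0 and 53.1). The family of miR-148 and miR-152 had 2 of 6 (33.3%), also near that share. These were miR-148b-3p (29.5, 32.9 and 38.7) and miR-148a-3p (26.5, 30.7 and 40.7), and miR-152-3p was detected on 2 arrays.

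Of 10 listed probes of miRNAs induced by inflammation, 3 were on all 6 arrays (30%), near the share of all probes (35%). These were miR-146b-5p (7.60, 9.35 and 11.6), miR-132-3p (3.1, 7.3 and 9.8) and miR-146b-3p, with a median of 6.33. The probe of miR-155-5p was detected on 2 arrays and at most 1.94. That of miR-146a-5p, the paralog of miR-146b-5p, was detected on none. The hypoxia miRNA miR-210-3p measured 30.6, 45.7 and 58.6. The list of mirtrons, a class described as cut out by splicing in place of Drosha, had 18 of 24 probes on all 6 arrays. This share was 75%, against 35% of all probes. The brightest was miR-1233-5p at 75.3, 108 and 117. How each listed miRNA is made was not measured.

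Arms were compared within each array over hairpins with 1 probe for each arm, 810 in all. Probes were paired by name, so several hairpins with the same mature name, such as those of let-7a, count as 1. Sequences of 4 such hairpins are shown as examples of very unequal and of nearly equal arms, with the annotated mature arms in capitals, from RefSeq in GRCh38.p14. They are MIR205 at chr1:209432133-209432242 (plus strand), MIR200C at chr12:6963699-6963766 (plus), MIR29A at chr7:130876747-130876810 (minus) and MIR574 at chr4:38868032-38868127 (plus).
MIR205: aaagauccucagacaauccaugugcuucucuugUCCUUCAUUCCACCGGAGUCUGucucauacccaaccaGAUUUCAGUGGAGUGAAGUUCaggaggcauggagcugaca
MIR200C: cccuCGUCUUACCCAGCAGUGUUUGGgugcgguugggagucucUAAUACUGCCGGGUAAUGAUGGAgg
MIR29A: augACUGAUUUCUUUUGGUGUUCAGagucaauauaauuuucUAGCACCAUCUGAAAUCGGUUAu
MIR574: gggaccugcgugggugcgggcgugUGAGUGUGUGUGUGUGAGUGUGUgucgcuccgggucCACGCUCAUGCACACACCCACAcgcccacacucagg

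Both arms were detected on all 6 arrays in 170 hairpins. The same arm was brighter on all 6 arrays in 136 of them (80.0%), the 5p arm in 88 and the 3p arm in 48. In the other 34 the brighter arm was not the same on every array, and their mean difference was at most 0.68 on the log2 scale. The median fold between the arms was 2.28 over the 170 hairpins. It was 6.22 over the 58 early-numbered and 1.93 over the 112 later ones, and differences above 8-fold occurred in 27 and 7 of them. Both arms had to pass the detection limit, so a hairpin whose brighter arm is dim cannot show a large fold. Early-numbered names were also the more frequent among the brightest probes, and the part of brightness in this contrast was not tested. A difference between arms holds the difference between the probes as well, so it is given as a description.

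Among the 170 hairpins with both arms on all 6 arrays, the largest mean difference toward the 5p arm was that of miR-21. It was 8.82 ± 0.45 on the log2 scale (SD, n = 6), or 451-fold, with 3p intensities of 3.88, 6.84 and 10.3. The hairpins of miR-93 (6.87 ± 0.21), miR-20a (6.86 ± 0.42), miR-205 (6.42 ± 0.10) and miR-4723 (6.20 ± 0.32) followed. For miR-205 the 3p arm measured 28.2, 34.0 and 38.1, so that both arms of this squamous miRNA were clear of the limit on every array.

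Toward the 3p arm, 5p minus 3p is below 0. Among the same hairpins the largest such differences were those of miR-1273g (-8.78 ± 0.54), miR-200c (-8.34 ± 0.28), miR-29a (-7.20 ± 0.19), miR-222 (-6.56 ± 0.20) and miR-27b (-6.48 ± 0.33). The dim arm of miR-200c measured 3.52, 5.06 and 6.86, close to the detection limit, so the size of that difference rests on a weak signal. The arm difference of the 5 hairpins on each side was of 1 sign on all 6 arrays.

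The brightest hairpins without a constant arm were miR-4485 (0.10 ± 0.35), miR-574 (0.15 ± 0.14), miR-1238 (0.68 ± 0.62), miR-6894 (-0.35 ± 0.24) and miR-6845 (0.54 ± 0.47). In miR-574 the 5p arm had 28.1, 37.6 and 57.9 and the 3p arm 22.9, 32.5 and 57.5. Its 5p arm was the brighter on 5 of 6 arrays, and the difference within an array ran from -0.0051 to 0.3402 on the log2 scale.

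In 34 hairpins 1 arm was detected on all 6 arrays and the other on none, 18 of them with the 5p and 16 with the 3p arm. Here the fold is a lower bound, taken against the lowest listed intensity of each array or the dim arm's own value where that was higher. The 5 brightest were let-7i (5p at least 142-fold brighter), miR-100 (at least 33.4-fold), miR-99a (at least 16.4-fold), miR-192 (at least 9.0-fold) and miR-452 (at least 7.94-fold). In 138 hairpins the 5p arm was on all 6 arrays and the 3p arm on 1 to 5, and in 113 the reverse held. No fold was computed for these, and some had very unequal arms. The medians of the 5p and 3p arms were 3027 and 1.09 in let-7a and 2.08 and 3555 in miR-23b. A further 3p probe of let-7a that was not paired, let-7a-2-3p, had a median of 2.42. In 49 hairpins neither arm was detected on any array. Of 136 hairpins with both arms on all 6 arrays, both sequences matched and unequal GC content, the brighter arm had the higher GC content in 80 (58.8%).

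**Figure D4:**
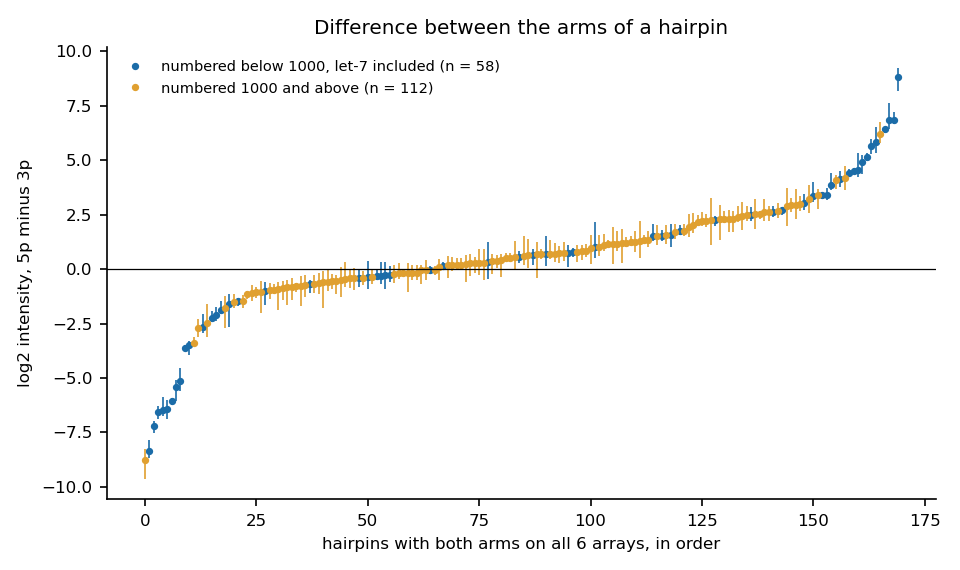
Log2 intensity of the 5p arm minus the 3p arm for the 170 hairpins with both arms on all 6 untreated arrays, in order of the mean; points are means of 6 arrays and vertical lines run from the lowest to the highest array. Blue points are names numbered below 1000 (let-7 included) and make up most of both ends, while most hairpins lie within a few log2 units of 0.

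Hairpins were also grouped by place, within 10 kb of each other on the same strand in the RefSeq table, which gave 79 clusters with 287 hairpins. In 34 clusters every hairpin had a probe detected on all 6 arrays, in 12 none had, and 33 were mixed. Of 208 pairs of neighbours, both were detected on all 6 arrays in 69 (33.2%), 1 in 64 (30.8%) and neither in 75 (36.1%), where 643 of 1467 hairpins (43.8%) were detected so in all. Neighbours in a cluster often have similar sequences, so their probes are not independent. A mature sequence made from several hairpins has 1 probe, which was counted for each of those hairpins. For the 3 hairpins from MIR509-2 to MIR509-1, for example, the best probe was miR-509-3p each time. The counts thus do not show which of such hairpins gave the signal.

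Clusters detected whole included both miR-23/27/24 clusters, at chr9:95085208-95086088 (plus strand) and chr19:13836287-13836659 (minus), the miR-29a and miR-29b-1 pair of chromosome 7 and the miR-200c and miR-141 pair of chromosome 12. In these the members were unequal: miR-23b-3p had a median of 3555 and miR-27b-3p one of 534. The 40 hairpins from MIR379 to MIR656, chr14:101022066-101066801 on the plus strand, had 16 detected on all 6 arrays and 6 on none. The smooth muscle cluster of MIR143 and MIR145 and the MIR302 cluster were among the 12 with no hairpin on all 6 arrays.

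The spread between arrays was measured as the SD of log2 intensity after quantile normalisation, which gives every array the same set of values. Its median over the 898 probes was 0.21. With scaling by the median alone it was 0.23. For the 50 brightest probes the median SD was 0.09 after quantile normalisation and 0.21 after median scaling, since quantile normalisation fixes the value of a probe that keeps its rank. For the probes ranked below 500 it was 0.27 and 0.26.

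Of probes in the first 300 ranks, the smallest SDs belonged to miR-4454, miR-7977, miR-7975, miR-29a-3p and miR-23a-3p, which ran from 0.00 to 0.02. With median scaling these were 0.27, 0.23, 0.18, 0.14 and 0.19. The largest SDs were those of miR-6087 (0.87), miR-6727-5p (0.47), miR-1237-5p (0.43), miR-2467-3p (0.42) and miR-7641 (0.41). In 4 of these, all except miR-2467-3p, control 5 was the lowest array before normalisation. It was also the lowest for miR-4454, miR-7977, miR-7975 and miR-23a-3p, so this does not set the probes of large SD apart. Outside those ranks, and chosen after its values were seen, miR-1468-5p had the largest SD of the 898 probes, 1.79. It measured 125.3 on control 4 and at most 8.66 on the other arrays.

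No label states a slide or a position. Both were inferred from a code and a number in the names under which the array data were deposited. By this reading, controls 1 and 2 lay on the first of 3 slides, 3 and 4 on the second and 5 and 6 on the third. Each slide then held a control at position 1 and at position 3. No probe of 898 (0%) passed an adjusted p of 0.05 for a difference between slides in limma's moderated F test, and 62 had an unadjusted p under 0.05. For position 3 against position 1 within slides, 1 of 898 (0.111%) passed in limma, and 171 had an unadjusted p under 0.05. With no difference, 44.9 of 898 are expected under 0.05. The counts of 62 for slides and 171 for position were both above this, position by far the more. Probes of an array can vary together, and the excess was not tested.

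The probe that passed was miR-6087, at 138, 147 and 87.5 on position 1 of slides 1 to 3 and at 370, 349 and 332 on position 3. The positions do not overlap, and position 3 was the brighter on 3 of 3 slides, by 1.54, 1.46 and 1.73 on the log2 scale. The fitted difference was 1.58 (95% interval 1.31 to 1.84), with limma's adjusted p at 0.04495. The call was lost when any 1 array was left out and when probes detected on at least 3 arrays were tested. Position and the odd or even replicate number cannot be told apart.

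**Figure D5:**
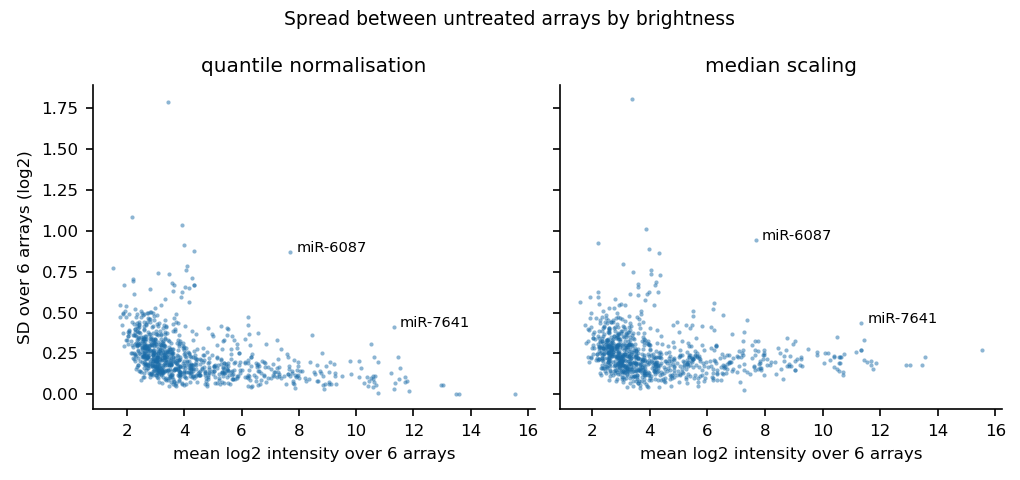
SD over the 6 untreated arrays against mean log2 intensity for the 898 probes detected on all 6, after quantile normalisation (left) and after median scaling (right). The brightest points lie near 0 on the left and near 0.2 on the right, and miR-6087 (SD 0.87 on the left) stands above probes of like brightness on both sides.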

How the data were processed

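Each deposited array file holds the raw Cy5 intensity and a background-subtracted intensity of 3200 spots, on a linear scale, per the file headers. The background the authors subtracted equals the mean of 320 blank spots after trimming 5% at each end, and a value is listed only above 2 SD over it. This call was rebuilt from the raw intensities with 0 mismatches. For the scanner, no make or software is given in the sources used here. Raw minus background was used for ranks and medians, so undetected probes keep their measured value. A total of 2 human spots marked as not good on control 5 were left out.

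For spread and tests, the background-subtracted intensities of probes detected on all 6 arrays were log2-transformed after quantile normalisation over the control arrays only, in R 4.3.3 with limma 3.58.1. Differences between slides (moderated F) and positions (slide as a block, two-sided) were fitted with lmFit and eBayes and Benjamini-Hochberg adjustment. The number of arrays limits the precision. The scripts were tested on simulated data. Sequences are from RefSeq tables, in which 2253 of 2565 probes matched. The tables are not complete, so clusters can miss hairpins.

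Named are the 15 probes of lowest median rank, the brightest members of each list, the 5 probes of largest and of smallest SD in the first 300 ranks, the hairpins of most unequal or changing arms, and miR-21, miR-155, miR-146a and miR-210. Further members of the lists are given where a family is described. The cells, lists and rules were chosen with earlier results of these data known. Alternatives were median scaling, no normalisation, normexp with an offset of 50, other detection limits and leaving out each array. The limit at the highest negative control spot and the spread in the authors' deposited series table, which holds linear intensity, were added after seeing the data.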

Additional observations from a re-analysis of the deposited data

Results flagged for a closer look

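For more than 100 measures (named probes and arm differences), the gap between the highest or lowest array and its nearest neighbour was set against the range of the 6 arrays by Dixon's criterion. Probe values here are log2 intensities after quantile normalisation, and arm differences are of intensities before it. A probe's highest or lowest array is therefore the one after normalisation, which can differ from the order of the intensities given above. The criterion was passed by 15 measures. The array that stood apart was control 5 in 6 of them, control 4 in 5, control 6 in 3 and control 2 in 1. The criterion's chance rate of about 1 in 20 groups is for normally distributed values. Quantile normalisation sets a bright probe's value by its rank, so a single change of rank can pass the criterion. The count of 15 can therefore not be set against that rate.

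Of the brightest probes, control 4 stood apart for miR-1260b (gap over range 0.9979), miR-4284 (0.9832) and miR-23a-3p (0.9963). In miR-1260b and miR-4284 this is the exchange of ranks 4 and 5, with log2 values of 12.92 and 13.07 on control 4, and the whole range is under 0.15 log2. The ranks of miR-23a-3p ran only from 6 to 7, with 11.81 on control 4 and 11.86 on the other arrays. After normalisation, control 2 was lowest for miR-1273g-3p (0.7884), at 11.26 against 11.33 to 11.35. Control 4 was then highest for miR-29b-3p (0.7262) and for miR-96-5p (0.6493).

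After normalisation, control 5 was highest for miR-107 (0.6559), miR-31-5p (0.8138), miR-301a-3p (0.6539), miR-203a-3p (0.6773) and miR-205-3p (0.6554). Before normalisation control 1 was the brightest for all of these, with 664 for miR-31-5p against 521 on control 5. The normalised log2 value of the squamous miRNA miR-31-5p was 9.26 on control 5 and 9.09 to 9.12 on the other arrays. That of miR-203a-3p was 5.57 against 5.22 to 5.33. The miR-27b arm difference on control 5 (0.6981) was -5.86 against -6.76 to -6.49.

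Control 6 was highest for miR-222-3p (0.6865) and for the blood cell miRNA miR-486-5p (0.6419), at 4.51 against 2.60 to 3.28, and lowest for miR-125a-3p (0.6283), at 7.43 against 7.78 to 7.99.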

How the results depend on the processing

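No paired analysis was possible because equal replicate numbers join a control with a treated array, and only control arrays were used. The position fit has the slide as a block. Without normalisation the median SD was 0.3613 and 83 probes differed between slides and 4 between positions. With normexp the SD was 0.0408 and 2 probes differed between positions. With probes on at least 3 arrays the SD was 0.3191 and 0 differed between positions. The limit at the highest negative control spot put 693 probes on no array and gave 79 hairpins with 1 arm on all 6 arrays and the other on none. At 3 SD over the blanks, 90 hairpins kept the same brighter arm, of 110 with both arms detected. Leaving out each array gave 36 to 56 such one-arm hairpins and 137 to 225 with a constant brighter arm, the highest in both cases without control 6, where more probes qualify (225 of 290, or 77.6%). It gave 898 to 1221 probes detected on all arrays and 456 to 544 on none, a median SD of 0.1837 to 0.214, 45 to 46 probes in the first 50 of every array, and 0 calls for slide and for position each time. The causes of these shifts were not tested beyond what the settings themselves change. Dim probes are limited by the blank spots of each array, and the number of arrays limits the slide and position fits.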
